A study of Mus musculus with 6 samples.

Results

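The genes described here encode keratins and the proteins of the cornified envelope. They are the 67 rows of a 21534-row count table whose symbol is a keratin (44 rows), a small proline-rich protein (Sprr, 12 rows) or one of Lor, Ivl, Flg, Tgm1, Tgm3, Crct1, Sfn, Perp, Evpl and Ppl (11 rows, as Flg has 2). The rule used symbols and no measured value. All 6 libraries came from ileal organoids (enteroids) of WT C57Bl/6 mice, which had been enriched for stem cells over 96 hours with 10 µM CHIR99021, a GSK3 inhibitor and thus a Wnt activator. The 3 retinoic acid libraries then received 10 µM all-trans retinoic acid for 24 hours, and the 3 vehicle libraries received DMSO for the same time. Such organoids hold epithelium without the surrounding tissue. Separate mice or cultures behind the libraries of one group are not stated, and the p-values therefore rest on a spread among samples that may be purely technical.

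Keratins are the intermediate filament proteins of epithelial cells, and each filament is built from pairs of a type I and a type II chain. Simple epithelia such as the gut lining use Krt8 and Krt7 (type II) with Krt18, Krt19 and Krt20 (type I), whereas stratified epithelia such as skin and oesophagus use other pairs, for example Krt5 with Krt14 in basal cells and Krt4 with Krt13 in moist linings. The cornified envelope is the crosslinked protein shell under the membrane of the outermost skin cells, made by transglutaminases from loricrin (Lor), involucrin (Ivl) and Sprr proteins on a scaffold of envoplakin (Evpl) and periplakin (Ppl). Retinoids are long known to oppose cornification in skin, and some Sprr genes are also active in the gut, where they respond to injury and microbes.

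Total counts were 15080190 to 21833846 in the retinoic acid libraries and 14919144 to 16927696 in the vehicle libraries. Library 3 of retinoic acid stood apart from libraries 1 and 2 of its group, with a chi-square statistic per row of 10.53 and 9.93 against 3.96 between those libraries. Library 3 of vehicle also lay furthest from the others of its group, less strongly, at 7.02 and 6.14 against 4.63. The labelled epithelium was borne out by Epcam (1374, 1425 and 1379 CPM with retinoic acid, against 1454, 1572 and 1502 CPM with vehicle) and Cdh1 (1713 to 1786 CPM with retinoic acid, against 1691 to 1809 CPM with vehicle), where CPM are counts per 1000000 of the scaled library. Of the 3 genes used to mark stratified basal cells, Krt14 had 0.152 to 0.407 CPM with retinoic acid and 1.62 to 2.9 CPM with vehicle, and the others were lower still with vehicle. Trp63, the master regulator of that layer, had at most 0.542 CPM in a retinoic acid library and at most 0.395 CPM in a vehicle library, and Krt5 at most 0.271 and 0.921 CPM. A list of 17 markers of mesenchyme, endothelium, immune cells and muscle summed to 10.5 to 13.8 CPM with retinoic acid and 10.8 to 12.9 CPM with vehicle. Without Cd68 the sum was 5.16, 5.56 and 4.85 CPM with retinoic acid, against 6.88, 8.59 and 7.5 CPM with vehicle, with no overlap, and its part in the falls of scarce members was not tested. Among those markers 1 rose, the lysosomal macrophage gene Cd68 (7.28 ± 1.42 against 4.31 ± 0.371 CPM, SD, n = 3 each). That call was lost without library 1 or 2 of either group. Among the other markers of gut cell types, the stem cell genes Olfm4 (27 ± 6.44 against 87 ± 18.1 CPM, SD, n = 3 each) and Lgr5 (81.7 ± 15 against 127 ± 1.38 CPM) fell. Vil1 of the brush border, Apoa4 of enterocytes, Ascl2 of stem cells, Muc2 of goblet cells, Lyz1 of Paneth cells, Chga of enteroendocrine cells and Dclk1 of tuft cells were not called.

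Retinoic acid left the abundant simple keratins close to their vehicle level, raised Sprr1a and Krt4, and lowered Lor, Krt14 and Krt6a. Of the 67 rows 25 had enough reads to be tested, and at an adjusted p under 0.05 (edgeR quasi-likelihood test, Benjamini-Hochberg over all 13700 tested rows) 4 rose and 7 fell. Over all tested rows 9.46% were called, as 5.37% rose and 4.09% fell. A called change of at least 2-fold was seen in 1 higher member (Sprr1a) and 6 lower members (Lor, Krt14, Krt6a, Krt39, Tgm1 and Krt27), against 0.745% and 0.372% of all tested rows. Krt14, Krt39, Tgm1 and Krt27 had enough reads to be tested only through their vehicle libraries. The counts of lower members therefore cannot be read as an excess over the share of all tested rows. The median log2 fold change was 0.01 in the 25 tested members and −0.01 in all tested rows. The 4 that rose were Sprr1a, Krt4, Sfn and Perp, and the 7 that fell were Lor, Krt14, Krt6a, Krt39, Tgm1, Krt27 and Crct1. The calls of 5 genes (Sprr1a, Krt4, Lor, Krt14 and Krt6a) held whichever library was left out, and those of the other 6 were lost without 4 or more of the 6 libraries in turn. The number of higher members was 2 without retinoic acid library 1, vehicle library 1 or vehicle library 3. The number of lower members was 3 without retinoic acid library 1 or 2 and 4 without vehicle library 2 or 3. The authors' deposited table also lists 4 higher and 7 lower members at an FDR under 0.05.

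**Figure D1:**
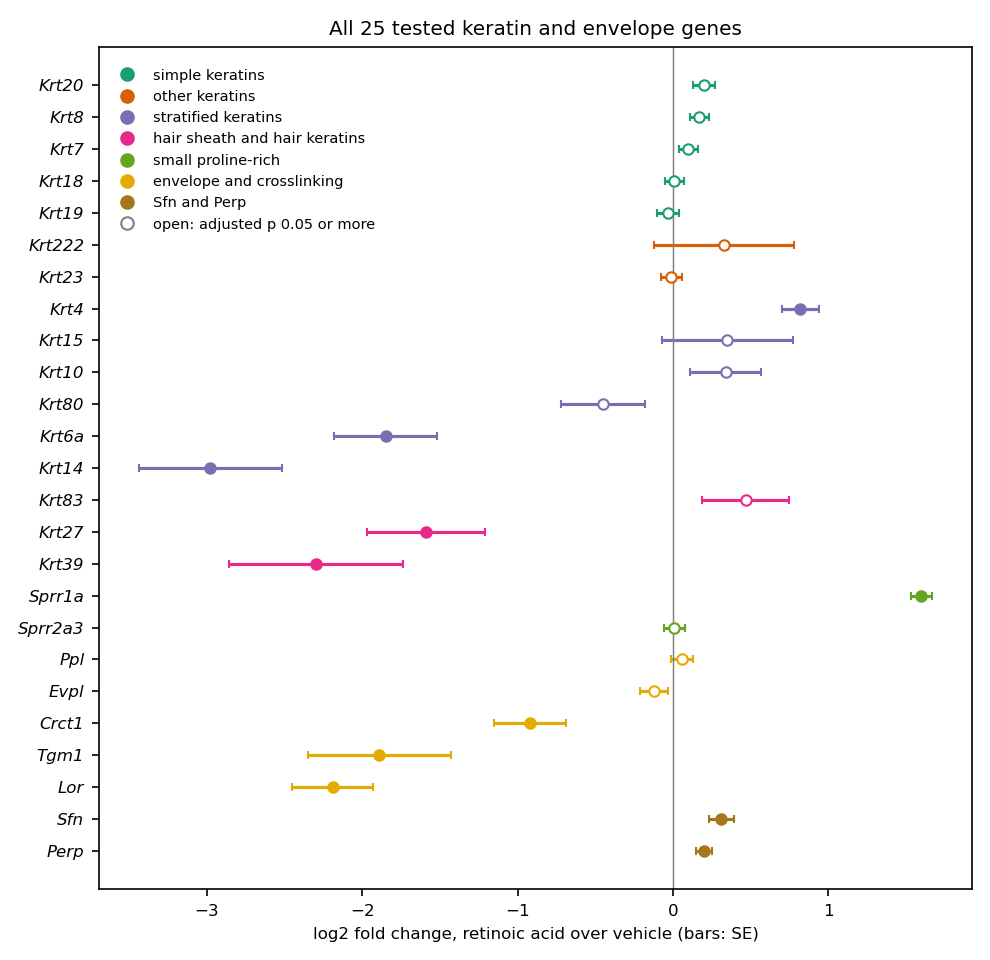
The log2 fold change of retinoic acid over vehicle is on the horizontal axis for each of the 25 tested genes, grouped and coloured by class, with bars for the standard error and filled points for an adjusted p under 0.05. Simple keratins lie near 0, whereas Sprr1a at 1.60 and Krt14 at −2.98 are the ends of the range.

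The promoter stretches of Sprr1a and Lor are shown because these were the most abundant members to change by at least 2-fold, in opposite directions, and they lie in one gene cluster. Each is the 250 bases before the RefSeq start on GRCm38.p6 (mm10), read 5′ to 3′ on the gene's own minus strand, with motif matches in capitals. The Sprr1a stretch is chr3:92485882-92486131 and the Lor stretch is chr3:92083143-92083392.
Sprr1a: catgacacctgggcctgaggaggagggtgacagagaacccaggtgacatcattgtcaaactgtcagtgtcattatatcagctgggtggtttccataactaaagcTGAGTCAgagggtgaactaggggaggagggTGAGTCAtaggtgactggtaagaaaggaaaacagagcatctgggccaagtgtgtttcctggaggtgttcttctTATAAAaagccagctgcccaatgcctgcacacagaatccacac
Lor: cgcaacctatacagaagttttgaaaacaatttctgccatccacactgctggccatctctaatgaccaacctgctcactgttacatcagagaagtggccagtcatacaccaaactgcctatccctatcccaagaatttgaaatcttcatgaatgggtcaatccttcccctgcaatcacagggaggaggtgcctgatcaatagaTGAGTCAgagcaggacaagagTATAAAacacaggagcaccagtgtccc

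Both stretches hold the letters TATAAA and the AP-1 letters TGANTCA, which Sprr1a has at 2 places, beginning 146 and 116 bases before the start, and Lor has at 1 place, 48 bases before it. TGANTCA was found on either strand in 6.87% of 27025 mouse promoters of the same length, and TATAAA in 13%. The retinoid half-site AGGTCA, found in 13.8% of promoters, was in neither stretch, and nor were the ETS letters AGGAAG (29.2% of promoters). No motif listed overlapped another. Of the 11 called genes 7 had a promoter in the RefSeq table, and the half-site was found on the reverse strand of Tgm1, which fell, and Sfn, which rose. In Tgm1 it lay in the stretch chr14:55713493-55713742, whereas the stretch of another Tgm1 start, chr14:55713089-55713338, held no motif match.

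The small proline-rich genes split by copy. Sprr1a, a glutamine- and proline-rich envelope precursor, rose 3.04-fold. It had 449, 459 and 384 CPM with retinoic acid, against 141, 146 and 138 CPM with vehicle (431 ± 40.8 and 142 ± 4.36 CPM, SD, n = 3 each). The groups were far apart, and retinoic acid library 3 was the lowest of its group. The log2 fold change was 1.60 (SE 0.07, adjusted p = 3.72e-09 in edgeR), between 1.56 and 1.68 with 1 library left out.

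Sprr2a3, the other abundant small proline-rich gene, had 461, 430 and 519 CPM with retinoic acid, against 449, 455 and 499 CPM with vehicle. These values overlapped and the log2 fold change was 0.01 (SE 0.07, adjusted p = 0.977 in edgeR). The ratio of Sprr1a to Sprr2a3 counts was 0.974, 1.07 and 0.74 with retinoic acid, against 0.313, 0.322 and 0.276 with vehicle. An exact two-sided permutation test of that ratio gave p = 0.1, the smallest that 3 against 3 libraries allow. Any ratio whose groups do not overlap gives this value. How reads were divided among Sprr2a1, Sprr2a2 and Sprr2a3, whose sequences are almost the same, is uncertain.

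The other 10 Sprr rows were below the limit for testing. Sprr2f had 22, 6 and 24 counts with retinoic acid, against 3, 6 and 4 with vehicle. Sprr2e had 0 counts in every retinoic acid library, against 7, 3 and 0 with vehicle. Sprr2h had 24, 9 and 0 counts with retinoic acid, against 10, 9 and 4 with vehicle. Sprr2a2 had 25 counts over the retinoic acid libraries and 12 over the vehicle libraries, and Sprr2a1 had 9 and 10. Sprr2b, Sprr2g, Sprr2i, Sprr2k and Sprr4 each had at most 3 counts in either group. These counts are too few to give a direction.

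Loricrin, the main protein of the mature cornified envelope, was the most abundant envelope transcript to fall. Lor (ENSMUSG00000043165, mm10 chromosome 3, 92080275 to 92083142) had 33.3, 37.8 and 84.8 CPM with retinoic acid, against 211, 197 and 308 CPM with vehicle. No library of one group reached the other, though retinoic acid library 3 was more than 2-fold above libraries 1 and 2. The means were 52 ± 28.5 and 239 ± 60 CPM (SD, n = 3 each), a 4.57-fold lower level. The log2 fold change was −2.19 (SE 0.26, adjusted p = 9.76e-05 in edgeR), and it was −2.75 without retinoic acid library 3. Per kilobase of transcript Lor ranked 3182 of 13528 genes with retinoic acid and 436 with vehicle. In bulk RNA, fewer cells making a transcript and less of it per cell cannot be told apart.

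Tgm1, the membrane-bound transglutaminase that crosslinks loricrin, was scarce and fell. It had 7, 5 and 29 counts with retinoic acid, against 44, 40 and 49 with vehicle. Its log2 fold change was −1.89 (SE 0.46, adjusted p = 0.0171 in edgeR). The fall was larger without retinoic acid library 3 (−2.99), and the call was lost without retinoic acid library 1 or 2 or vehicle library 1 or 3 (adjusted p up to 0.0846). Tgm3, a relative of skin and hair, had 0, 1 and 3 counts with retinoic acid, against 4, 4 and 4 with vehicle, too few to test.

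Crct1, a cysteine-rich protein gene of the same cluster as Lor, had 3.09, 2.92 and 3.03 CPM with retinoic acid, against 6.36, 6.93 and 3.75 CPM with vehicle. The fall (log2 fold change −0.92, SE 0.23, adjusted p = 0.0236 in edgeR) was not called without vehicle library 1 or 2 (0.11 and 0.124) and without retinoic acid library 1 or 2 (0.0749 and 0.0695). Ivl had 7, 5 and 12 counts with retinoic acid, against 10, 1 and 1 with vehicle. Flg, the filaggrin precursor, had 1 count in all 6 libraries together.

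The plakin scaffold genes were detected in every library and did not pass the test. Ppl had 93.5, 92.3 and 99.5 CPM with retinoic acid, against 90.6, 85.9 and 96.7 CPM with vehicle, a log2 fold change of 0.06 (SE 0.07, adjusted p = 0.656 in edgeR). Evpl had 32.1, 28.9 and 32 CPM with retinoic acid, against 30.7, 35.9 and 34.6 CPM with vehicle, a log2 fold change of −0.12 (SE 0.09, adjusted p = 0.507 in edgeR). Both pairs of groups overlapped.

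**Figure D2:**
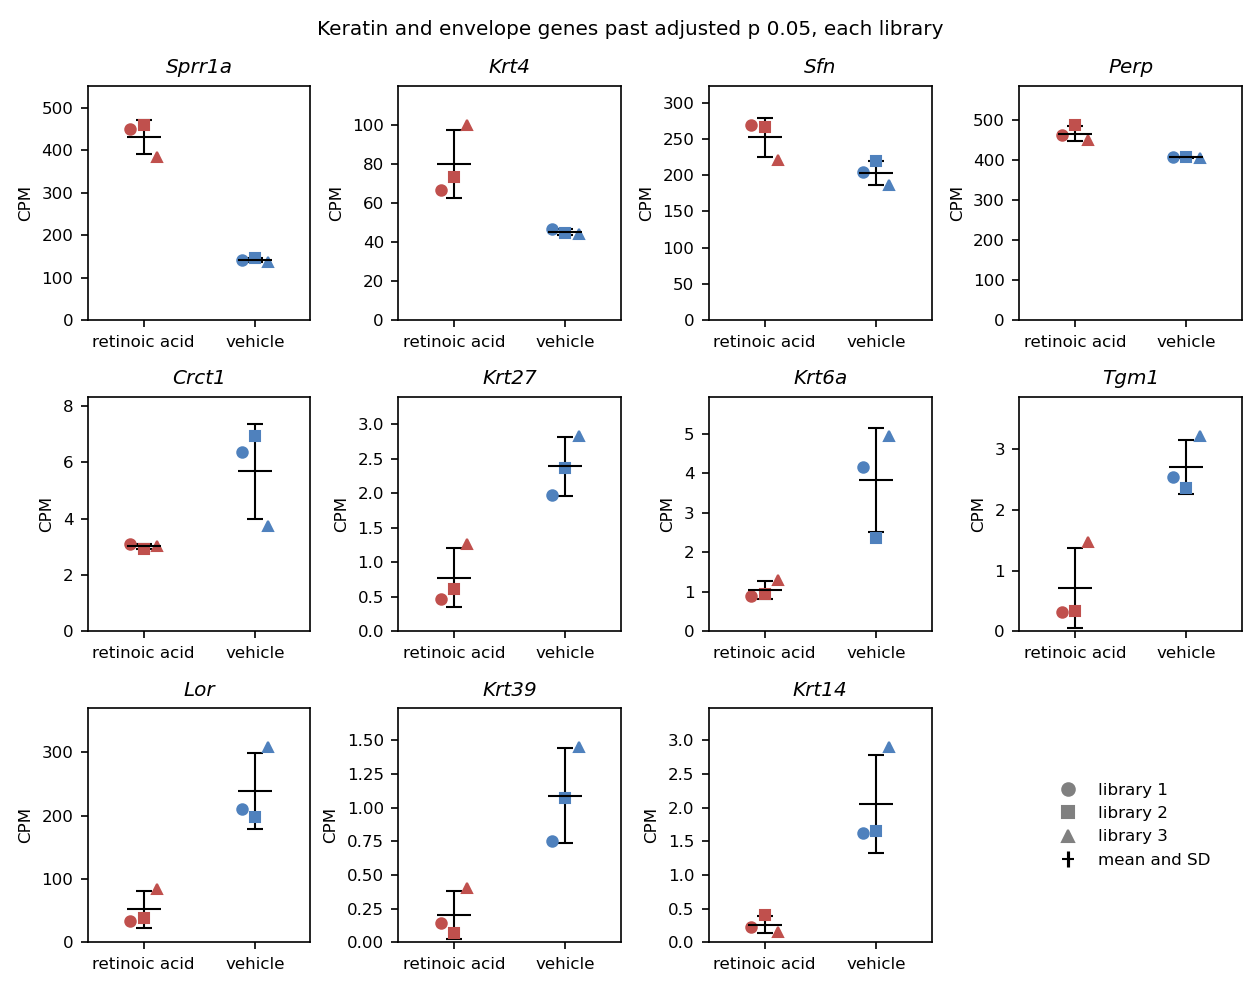
CPM in each library (vertical axes, each from 0) for the 11 genes past the threshold, with retinoic acid left of vehicle, marker shapes for libraries 1 to 3, and the mean with its SD. The groups do not overlap in any of the 11 panels, and library 3 is the highest of both groups in Krt27, Krt6a, Tgm1, Lor and Krt39.

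Sfn and Perp, which are targets of p53 or its relative p63 in skin, rose slightly. Sfn, the 14-3-3 protein stratifin, had 269, 266 and 221 CPM with retinoic acid, against 204, 219 and 186 CPM with vehicle (1.24-fold, log2 fold change 0.31, SE 0.08, adjusted p = 0.0257 in edgeR). Perp, a membrane protein needed for desmosomes, had 461, 487 and 449 CPM with retinoic acid, against 408, 407 and 405 CPM with vehicle (1.15-fold, log2 fold change 0.20, SE 0.05, adjusted p = 0.0365 in edgeR). The groups did not overlap for either gene, which was so for 14 of the 25 tested members and for 25.5% of all tested rows (12.9% with retinoic acid above and 12.6% below). Sfn stayed called without retinoic acid library 3 or vehicle library 2 and Perp without retinoic acid library 3, and leaving out any other library ended the call (edgeR adjusted p up to 0.131 for Sfn and 0.162 for Perp). In a wider list of 18 p53 targets 3 rose (Gdf15, Cdkn1a and Tnfrsf10b) and none fell, and 2 fell without retinoic acid library 3. Over all tested rows 5.37% rose and 4.09% fell. The median log2 fold change of the list was −0.00, with 9 values positive and 9 negative.

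Among stratified keratins, Krt4 rose while Krt14 and Krt6a fell. Of 20 such rows 6 could be tested. Krt4, the type II keratin of the oesophagus and other moist stratified linings, had 66.9, 73.1 and 99.9 CPM with retinoic acid, against 46.9, 44.7 and 44 CPM with vehicle. All retinoic acid libraries were higher, library 3 most of all. The means were 80 ± 17.5 and 45.2 ± 1.53 CPM (SD, n = 3 each), a log2 fold change of 0.82 (SE 0.12, adjusted p = 0.000489 in edgeR), and 0.63 without retinoic acid library 3. Its usual type I partner Krt13 had 0 counts in every retinoic acid library and 0, 0 and 2 with vehicle.

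Krt14, the basal keratin of skin, was rare and fell 7.89-fold. It had 5, 6 and 3 counts with retinoic acid, against 28, 28 and 44 with vehicle, or 0.264 ± 0.13 and 2.06 ± 0.726 CPM (SD, n = 3 each). The log2 fold change was −2.98 (SE 0.46, adjusted p = 0.000884 in edgeR) and between −3.35 and −2.66 with 1 library left out. Its partner Krt5 had 5, 4 and 5 counts with retinoic acid, against 11, 1 and 14 with vehicle, and was not tested.

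Krt6a, a keratin of hair follicles and healing wounds, had 19, 14 and 26 counts with retinoic acid, against 72, 40 and 75 with vehicle. The groups did not overlap, and the log2 fold change was −1.85 (SE 0.33, adjusted p = 0.00235 in edgeR). Its partners in wounds stayed near 0: Krt16 had 0, 2 and 2 counts with retinoic acid and 7, 2 and 0 with vehicle, and Krt17 had 1 count in 1 vehicle library. Krt14, Krt16 and Krt17 are close copies, as are Krt6a and Krt6b, so reads between them may be split.

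The other tested stratified keratins did not pass. Krt10, the type I keratin of upper skin layers, had 3.89, 3.66 and 3.79 CPM with retinoic acid, against 2.54, 3.91 and 2.5 CPM with vehicle. Krt80 had 2.16, 2.98 and 2.58 CPM with retinoic acid, against 4.33, 2.37 and 3.75 CPM with vehicle. Krt15, a basal keratin, had 21, 11 and 13 counts with retinoic acid, against 13, 7 and 11 with vehicle. Their adjusted p values in edgeR were 0.459, 0.375 and 0.71, and each pair of groups overlapped.

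Hair keratins were present as traces. Krt27, a type I keratin of the inner root sheath, had 10, 9 and 25 counts with retinoic acid, against 34, 40 and 43 with vehicle (log2 fold change −1.59, SE 0.38, adjusted p = 0.016 in edgeR). Krt39, a type I hair keratin, had 3, 1 and 8 counts with retinoic acid, against 13, 18 and 22 with vehicle (log2 fold change −2.30, SE 0.56, adjusted p = 0.0178 in edgeR). In both, library 3 was the highest of its group in each treatment. Without retinoic acid library 3 the log2 fold changes were −2.15 and −3.21. Both calls were lost without retinoic acid library 1 or 2 or vehicle library 2 or 3 (adjusted p up to 0.0923 for Krt27 and 0.102 for Krt39). Krt83, a type II hair keratin whose end lies 1 kb from the end of the abundant Krt7 on the opposite strand, had 46, 41 and 41 counts with retinoic acid, against 33, 30 and 20 with vehicle, and was not called although its groups did not overlap (adjusted p = 0.385 in edgeR).

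Library 3 had the highest level of both groups in 5 of the 7 genes that fell, the exceptions being Krt14 and Crct1. The part of this difference between libraries in the 5 falls was not tested. All 5 log2 fold changes were negative in every fit that left out 1 library.

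The simple keratins made up nearly all keratin reads and none was called. Together Krt7, Krt8, Krt18, Krt19 and Krt20 summed to 7669, 7241 and 8302 CPM with retinoic acid, against 7344, 7288 and 8070 CPM with vehicle. That was 97.6% to 97.9% of all keratin CPM with retinoic acid and 97.8% to 98.2% with vehicle. Krt19, the small tailless keratin of glandular epithelia, ranked 2 of 13528 genes per kilobase of transcript with retinoic acid and 3 with vehicle. It had 4210, 3938 and 4675 CPM with retinoic acid, against 4164, 4164 and 4743 CPM with vehicle, and its log2 fold change was −0.03 (SE 0.07, adjusted p = 0.87 in edgeR).

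Krt8 had 1499, 1460 and 1579 CPM with retinoic acid, against 1309, 1307 and 1426 CPM with vehicle. Every retinoic acid library lay above every vehicle library, but the difference was small and not called (log2 fold change 0.17, SE 0.06, adjusted p = 0.0819 in edgeR). Krt8 was called in edgeR with no filter on low counts (0.0267) and with a term for replicate number in the fit (0.00455). In the unfiltered fit the edgeR adjusted p of Lor was 1.73e-188, against 9.76e-05 with the filter. The log2 fold changes of Lor were nearly the same (−2.18 and −2.19), so calls of the unfiltered fit carry less weight. Krt18, the filament partner of Krt8, had 994, 911 and 1028 CPM with retinoic acid, against 990, 941 and 982 CPM with vehicle, and its groups overlapped (log2 fold change 0.01, SE 0.06, adjusted p = 0.947 in edgeR). The ratio of Krt8 to Krt18 counts was 1.51, 1.6 and 1.54 with retinoic acid, against 1.32, 1.39 and 1.45 with vehicle. An exact two-sided permutation test of that ratio gave p = 0.1, again the smallest possible and fixed by the lack of overlap. The ratio of Krt8 to Krt7 counts was 1.97, 2.03 and 1.89 with retinoic acid, against 1.81, 1.88 and 1.93 with vehicle. That ratio overlapped between the groups, as did the ratio of Krt19 to Krt18 counts, and neither was tested.

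Krt20, the keratin of mature enterocytes and goblet cells, had 203, 214 and 182 CPM with retinoic acid, against 158, 181 and 180 CPM with vehicle. The groups were separated by a narrow gap and the gene was not called (log2 fold change 0.20, SE 0.07, adjusted p = 0.106 in edgeR). It was called with no filter on low counts (0.0229), without retinoic acid library 3 (0.0121) and with a term for replicate number (0.022). In the wider list of enterocyte markers, which are absorptive and brush border genes, 3 of 17 tested members rose (Fabp1, Mttp and Fabp2) and Alpi fell, while 7 fell without retinoic acid library 3. Over all tested rows 5.37% rose and 4.09% fell. The median log2 fold change of the list was −0.06, with 7 values positive and 10 negative.

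Krt7, the type II keratin of ducts, had 762, 718 and 837 CPM with retinoic acid, against 722, 695 and 739 CPM with vehicle (log2 fold change 0.10, SE 0.06, adjusted p = 0.371 in edgeR). Krt23, a type I keratin outside the classical simple set, had 82.4, 88.1 and 91.1 CPM with retinoic acid, against 94.6, 87.9 and 80.2 CPM with vehicle (log2 fold change −0.01, SE 0.07, adjusted p = 0.973 in edgeR). Krt222 had 1.08, 2.3 and 0.707 CPM with retinoic acid, against 1.27, 1.18 and 0.658 CPM with vehicle (adjusted p = 0.744 in edgeR). All 3 pairs of groups overlapped.

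**Figure D3:**
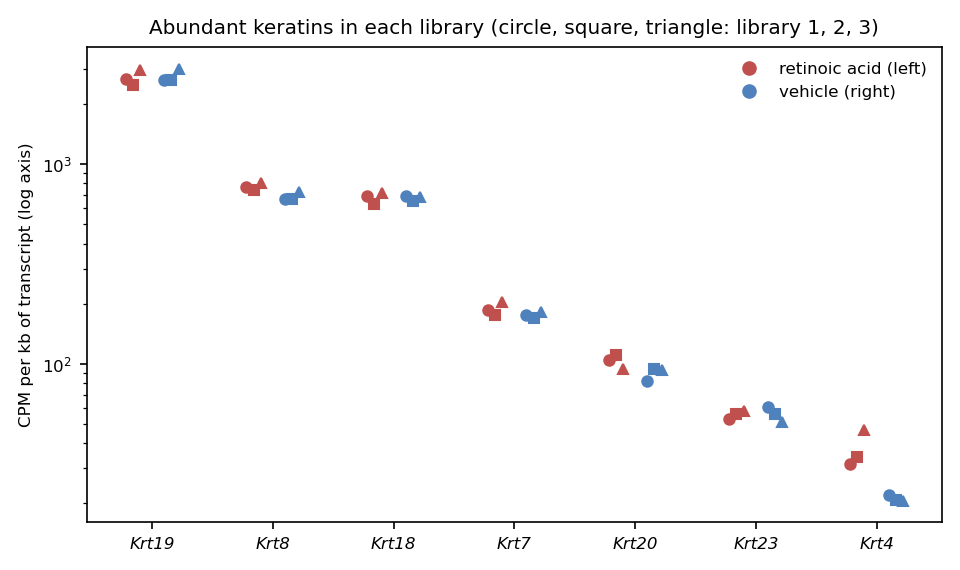
CPM per kilobase of transcript (log axis) of the 7 most abundant keratins in each library, with retinoic acid left of vehicle for each gene. Krt19 is the highest in all 6 libraries, and retinoic acid lies above vehicle without overlap in Krt4, Krt8 and Krt20.

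Type I keratins outweighed type II keratins in all 6 libraries, by less with retinoic acid. Summed per kilobase over 25 type I rows, the level was 3525, 3304 and 3838 CPM per kb with retinoic acid, against 3479, 3454 and 3844 CPM per kb with vehicle. Over 19 type II rows it was 986, 959 and 1061 CPM per kb with retinoic acid, against 872, 862 and 935 CPM per kb with vehicle. The type I sums overlapped between the groups. Of the type II means of 1002 and 889 CPM per kb, Krt8, which was not called, made up 773 and 688. The ratio of type I to type II was 3.57, 3.45 and 3.62 with retinoic acid, against 3.99, 4.01 and 4.11 with vehicle, with no overlap between the groups and no test made. The length used is that of the longest principal transcript in GENCODE M21, and another choice of transcript would shift these ratios.

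The 3 gene clusters that hold these genes showed no common direction. On mm10 chromosome 3, 92080275 to 93293686, Sprr1a rose 401 kb from Lor, which fell, and 528 kb from Crct1, which fell. The 3 tested genes there that are not members (Crnn, Gm9774 and Prr9) were not called. In the type I cluster on chromosome 11 (99232761 to 100269871) 9 of 24 keratin rows were tested, and Krt27, Krt39 and Krt14 fell and none rose. In the type II cluster on chromosome 15 (101349571 to 102032026), which also holds Krt18, 7 of 20 rows were tested, and Krt4 rose 224 kb from Krt6a, which fell.

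**Figure D4:**
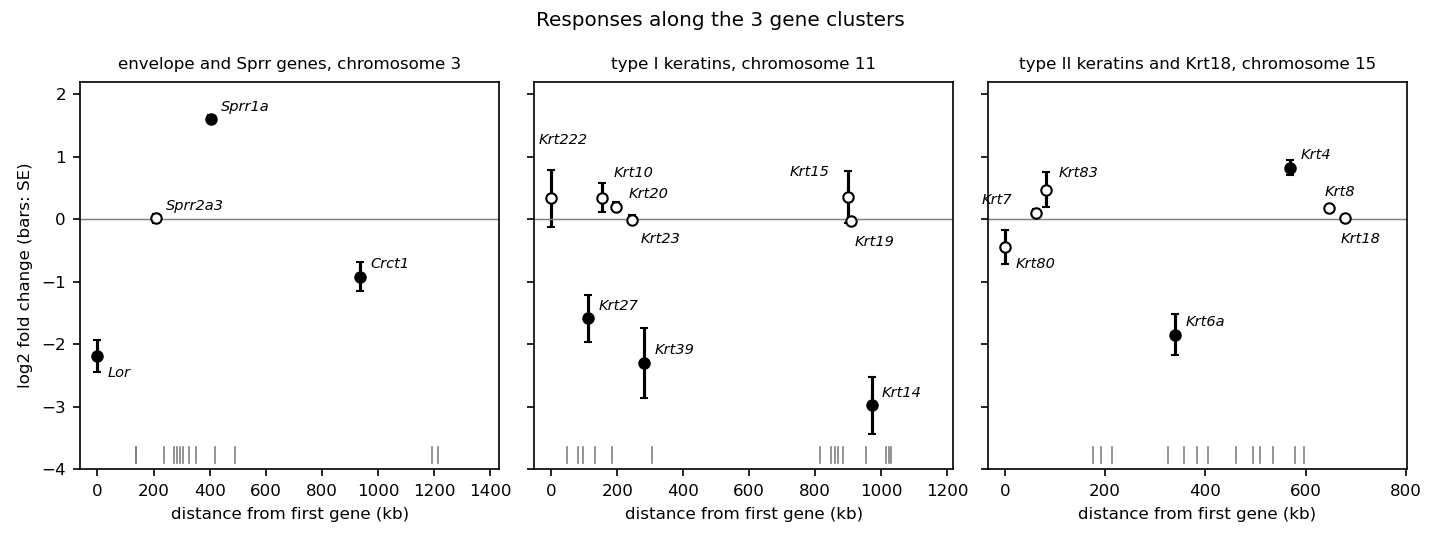
The log2 fold change of retinoic acid over vehicle (bars are SE) is plotted against distance from the first gene of each cluster in kilobases. Filled points passed an adjusted p of 0.05, and grey ticks mark members with too few reads to test. Genes that rose and fell lie in the same cluster on chromosomes 3 and 15.

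The remaining 42 rows had between 1 and 65 counts over the 6 libraries, and 29 of them had at most 10. Together they summed to 299 raw counts with retinoic acid and 296 with vehicle, with both Flg rows included. These sums were not scaled for depth, which was higher in retinoic acid libraries 1 and 3 than in any vehicle library. No count was recorded in any retinoic acid library for 10 of the 42 rows, or in any vehicle library for 2 (Krt26 and Sprr4). At this depth that does not show absence. Among stratified keratins, Krt1 of the upper skin layers had 10, 5 and 3 counts with retinoic acid, against 6, 12 and 5 with vehicle. Krt78 had 11, 6 and 6 counts with retinoic acid, against 8, 2 and 6 with vehicle. Krt12, the keratin of the cornea, had 9, 6 and 8 counts with retinoic acid, against 6, 16 and 2 with vehicle, and Krt79 had 9, 4 and 2 against 6, 6 and 11. These groups all overlapped. Krt2, Krt6b, Krt9, Krt24, Krt76 and Krt77 had between 1 and 7 counts summed over the retinoic acid libraries and between 1 and 7 over the vehicle libraries. The hair follicle sheath keratins Krt25, Krt26, Krt28, Krt71, Krt74 and Krt75 had 0 to 4 and 0 to 9 summed counts, the hair and nail keratins Krt31, Krt32, Krt35, Krt36, Krt40, Krt82 and Krt84 had 0 to 8 and 1 to 9, and Krt42 had 1 and 2.

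In the lists of genes that work beside these members, called genes are to be read against the 9.46% called over all tested rows. Of 13 other tested genes of epidermal differentiation 1 rose and 1 fell, with a median log2 fold change of −0.02. These were S100a16, a calcium-binding protein (1.18-fold higher), and Serpinb5, a serpin of epithelial cells (log2 fold change −0.59, SE 0.13). Both counts depended on single libraries: the higher gene was lost without retinoic acid library 1 or any vehicle library, and the number lower was 0 without vehicle library 1 and 2 without vehicle library 3. In the list of crosslinking partners 1 of 8 fell, Anxa1, an annexin that is a transglutaminase substrate (26.5 ± 2.51 against 36.9 ± 3.29 CPM, SD, n = 3 each), and none rose, or 1 without retinoic acid library 3.

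Of 18 tested transcription factors of stratified epithelia 1 rose and 3 fell. Elf3, an epithelial ETS factor, had 1219, 1221 and 1102 CPM with retinoic acid, against 722, 798 and 734 CPM with vehicle (1.57-fold, log2 fold change 0.65, SE 0.06, adjusted p = 7.43e-06 in edgeR). Maf (−0.50), Hopx (−0.28) and Ehf (−0.26) fell on the log2 scale, although 1 alone fell without retinoic acid library 1, and 2 factors rose without retinoic acid library 3 or vehicle library 2. Grhl2 and Klf4, factors of epithelial barrier formation, did not pass the test.

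Of 23 tested genes that anchor keratin filaments or encode other intermediate filaments, 3 fell and 1 rose. Desmoplakin, the protein that ties keratins to desmosomes, fell slightly: Dsp had 670, 697 and 709 CPM with retinoic acid, against 851, 799 and 880 CPM with vehicle (log2 fold change −0.29, SE 0.06, adjusted p = 0.00439 in edgeR). Its partner Pkp1 (−0.55) and the nuclear lamin gene Lmna (−0.32) also fell, and the desmosomal cadherin gene Dsg2 rose (0.21). Plec, which encodes the linker plectin, was not called. The call of Dsg2 was lost without any single library other than retinoic acid library 3, without which 2 rose and 5 fell.

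Sprr1a is also a marker of injured and fetal-like gut epithelium, so 20 tested genes of that state outside the members were counted. Of these 8 rose and 2 fell, with a median log2 fold change of 0.16. Plaur, the urokinase receptor, rose 2.32-fold (133 ± 6.76 against 57.2 ± 3.01 CPM, SD, n = 3 each), and Ccn2, a matricellular protein, rose 2.06-fold. The growth factor genes Areg and Ereg rose 1.57-fold and 1.45-fold, and Il1rn, Cldn4, Ly6a and Clu also rose. Anxa1 and S100a6 fell (−0.48 and −0.32), 1 of them without retinoic acid library 1 or 2 or vehicle library 1 or 3. In a cell cycle list 12 of 18 genes fell and none rose, among them the proliferation marker Mki67 (118 ± 15.2 against 184 ± 13.6 CPM, SD, n = 3 each) as well as Mcm6, Mcm5 and Mcm2, subunits of the helicase that opens DNA for copying.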

How the data were processed

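The authors deposited raw read counts per gene for 6 libraries of directional polyA RNA, aligned to mm10 per the submitters' processing notes, with their own p-value, FDR and log2 fold change from DESeq per the file headers. For the aligner, the annotation, the use of strand and reads with several matches, the tool or setting is not given in the sources used here. Members were matched by the table's symbol, and list genes by that symbol or by a current symbol found through the gene ID. The count table was fitted in edgeR 4.0.16 (R 4.3.3): filterByExpr left 13700 of 21534 rows, TMM scaling gave factors of 0.978 to 1.02, and glmQLFit with treatment as its only term was tested with glmQLFTest, two-sided. Adjustment for multiple tests followed Benjamini and Hochberg over all tested rows, and genes under 0.05 were called. Steps were checked on simulated counts, where 72.7% of 1.5-fold changes and 88.9% of 2-fold changes were recovered. Of the calls in that simulation 6.98% were unchanged genes, at the threshold of 0.05. The SE is the log2 fold change divided by the square root of F. Transcript lengths came from GENCODE M21.

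The members and gene lists were chosen with earlier results of these data known, so counts over a list are a description and no list was tested as a set. By rule the text names every tested member, every untested member with a count, and up to 4 called genes of each list with the smallest p, plus defining markers. Grhl2, Klf4, Plec, Ereg, Il1rn and S100a6 were named after their values were seen. A few genes of the lists are not reported here. Alternatives were DESeq2 1.42.0 (test and size factors), limma-voom (limma 3.58.1), no filter, a filter of 10 counts in every library of a group, a test against a 1.5-fold change, a replicate block, and each library left out.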

Additional observations from a re-analysis of the deposited data

How the results depend on the processing

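With each library left out in turn, the higher genes numbered 443 to 978 and the lower 289 to 787 over the whole table, the higher members 2 to 5 and the lower members 3 to 7, and the simple keratins called higher 0 to 1. Outside the simple keratins 2 to 4 members were higher and 3 to 7 lower. A test against a 1.5-fold change called 77 genes higher and 22 lower, among them 1 higher member (Sprr1a) and 3 lower members, all outside the simple keratins, with 3 list genes higher and 0 lower. Without a filter on low counts 2 simple keratins (Krt8 and Krt20) were called higher. That fit carries less weight, as its edgeR adjusted p for Lor fell to 1.73e-188 at nearly the same log2 fold change. The labels do not say whether same-numbered libraries are pairs. Deviations from the group mean correlated at 0.128, 0.098 and 0.257 between same-numbered libraries. Between libraries of unlike number the correlations ran from −0.169 to 0.06, and every library correlated best with its own number. Pairing was therefore not settled, and the replicate block was kept as an alternative. With the replicate block 1224 genes were higher and 1052 lower, 2 simple keratins (Krt8 and Krt20) were higher and 34 list genes lower. DESeq2 called 4 members higher and 6 lower and gave Krt39 no adjusted p. Signs turned in 5 uncalled members: with 1 library left out the log2 fold change ran from −0.22 (without retinoic acid library 2) to 0.65 in Krt222, which was 0.33 with all libraries, and from −0.10 to 0.04 in Krt19, −0.03 to 0.06 in Krt18, −0.07 to 0.07 in Sprr2a3 and −0.07 to 0.05 in Krt23, which was 0.00 with no filter. The cause was not tested. DESeq2 size factors, limma-voom and the 10-count filter kept 4 higher and 7 lower members. Depth limits the 42 untested members and the traces of Krt14, Krt27, Krt39 and Tgm1.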

Other observations

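Ivl and Sprr2a2 had the same count in 5 of 6 libraries and differed by 1 read in retinoic acid library 1 (7 and 8 counts), although their listed spans lie apart on chromosome 3. The 2 rows of Flg held identical counts and share a gene ID.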
